A study of Mus musculus with 4 samples.

Results

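The genes described here are those of cholesterol synthesis and of its control by sterols, with the fatty acid genes that share part of that control, in mouse embryonic stem cells depleted of Kdm2b. They were chosen by name, as a list of 40 symbols. Sc4mol is an older symbol of Msmo1, which leaves 39 genes. Each gene was read from its brightest probe set among those annotated with a single symbol. This gave values for 35 genes, of 19938 genes with such a probe set in the whole series. Acat2, Nr1h2, Soat1 and Acsl3 were not analysed here.

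Expression was measured on 4 Affymetrix MoGene 1.0 ST arrays, which hold short probes along the transcripts of most mouse genes. A pair of arrays came from E14 cells labelled as Kdm2b knockdown and a pair from cells labelled as control. E14 is an embryonic stem cell line from the inbred strain 129. Both groups were kept on gelatin, with 15% serum in the medium and leukemia inhibitory factor (1000 units/ml), which holds mouse stem cells undifferentiated. Both received lentivirus at 10 MOI, and transduced cells were selected from 48 h on with 2 µg/ml of puromycin. The labels state neither what the control vector carried, nor the knockdown sequences, nor whether replicates were separate cultures. The p-values therefore measure only the spread between these arrays, which may be technical.

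Cells make cholesterol from acetyl-CoA through mevalonate, isoprenoids, squalene and lanosterol. The transcription factor SREBP-2, encoded by Srebf2, switches on most genes of this route, and SREBP-1, encoded by Srebf1, acts more on fatty acid genes. Both are made as precursors in the endoplasmic reticulum, where Scap escorts them to the Golgi for cleavage when sterols are low, and Insig proteins hold Scap back when sterols are high. Oxidised sterols activate the liver X receptors (LXR), nuclear receptors that raise sterol export genes such as Abca1 and Abcg1. Proliferating cells draw on the same route for membrane cholesterol and for the isoprenoid tails of proteins. Kdm2b, a histone demethylase, binds unmethylated CpG-rich DNA and belongs to a variant of Polycomb repressive complex 1.

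Kdm2b itself was read first, as a check of the labels. Its log2 expression was 9.20 and 9.19 on the knockdown arrays, against 10.74 and 10.64 on the control arrays. The groups were far apart (log2 fold change -1.495, SE 0.066, limma adjusted p = 0.0039), a level 2.82-fold lower after knockdown. The series asks how Kdm2b keeps stem cells undifferentiated, and the comparison below gives how the sterol genes differed between the knockdown and control arrays.

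After Kdm2b knockdown the sterol genes did not move in a common direction. Of the 35 measured, Scap and Hsd17b7 rose, and Acsl4, Abcg1, Tm7sf2 and Insig2 fell (adjusted p under 0.05 in limma, adjusted over all 19938 genes). The other 29 did not pass the threshold. The 2 genes that rose are 5.71% of the list, where 5.00% of all genes tested rose. The 4 that fell are 11.4%, where 7.19% of all genes fell. Together 17.1% of the list was called against 12.2% of all genes, so the share lies near the background. With dim genes (mean log2 value at or below 8.52) removed, 2 of 34 members rose and 5 fell, where 1012 of 11526 genes rose and 1516 fell. The median log2 fold change was 0.02 over the list and 0.03 over all genes, and 19 members had a positive value (56.9% of all genes did), 15 a negative one and Srebf2 a value of 0. Knockdown and control values were fully separated for 19 members, or 54.3%, against 58.8% of all genes. The complete set of arrays gave 13 of the 35 members an unadjusted p under 0.05, where 29.8% of all genes had one. When any array was left out, limma called 0 of all 19938 genes and so 0 members. An unadjusted p under 0.05 was then found for 3495 to 4215 of all genes and for 7 to 12 members.

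**Figure D1:**
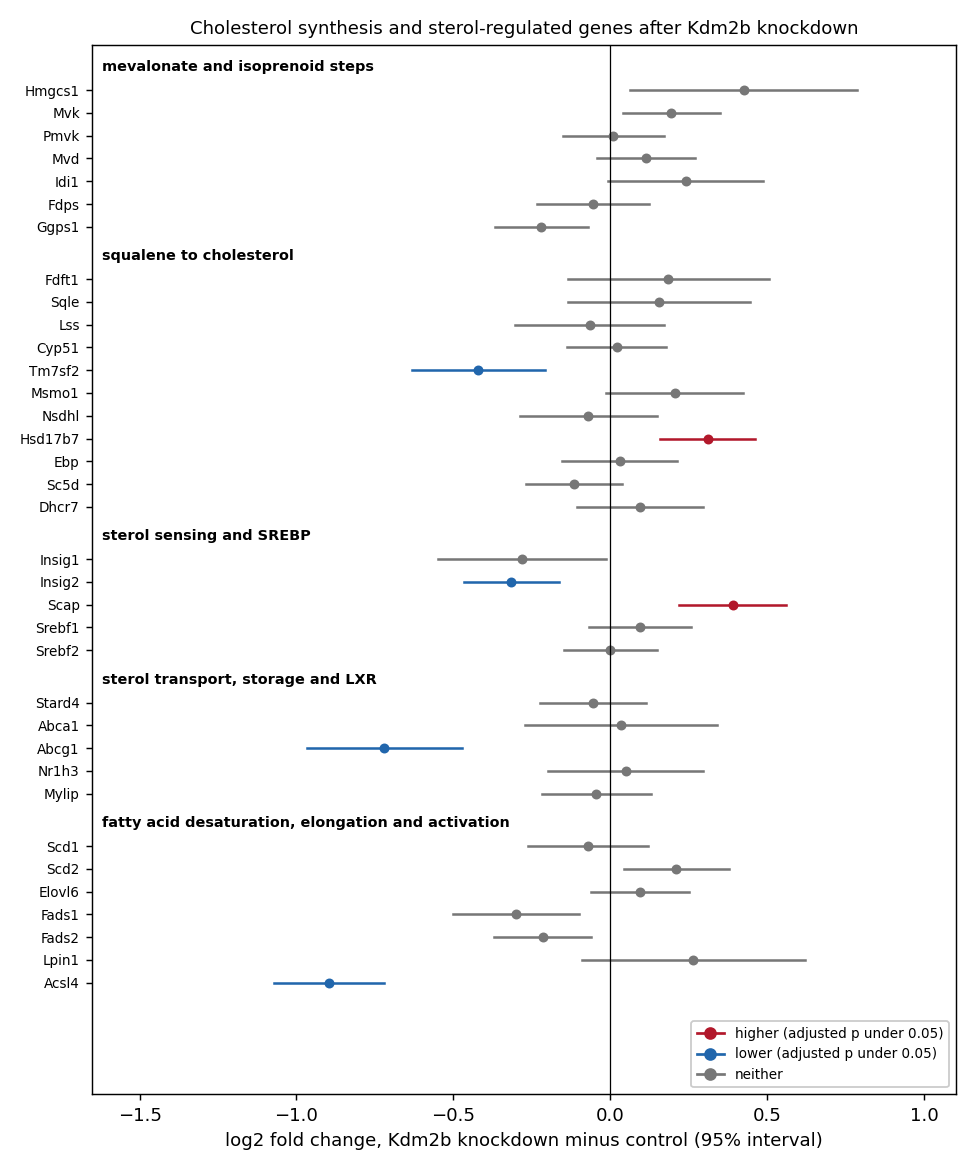
Log2 fold change (Kdm2b knockdown minus control, x axis) of the 35 measured members, grouped by role (y axis). Points are limma estimates from 2 arrays per group, lines are 95% intervals, and colour marks the call at an adjusted p under 0.05. The 2 genes that rose stand at 0.31 (Hsd17b7) and 0.39 (Scap), and the 4 that fell run from -0.315 (Insig2) to -0.895 (Acsl4).

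Among the genes of sterol sensing, Scap was higher and Insig2 lower after knockdown, while neither SREBP gene passed the threshold. Scap, the escort of the SREBP precursors, had log2 values of 11.89 and 11.78 on the knockdown arrays, against 11.42 and 11.47 on the control arrays. Both knockdown values lay above both control values, and Scap rose by 0.39 (SE 0.069, adjusted p = 0.0229, limma), a 1.31-fold change. Insig2, a retention protein of the endoplasmic reticulum, had 10.28 and 10.32 on the knockdown arrays, against 10.63 and 10.60 on the control arrays. The groups were again apart, and Insig2 fell by 0.315 (SE 0.061, adjusted p = 0.0292, limma), a 1.24-fold change.

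Insig1, the related retention protein and itself a well-known SREBP target, had 11.67 and 11.42 on the knockdown arrays, against 11.73 and 11.92 on the control arrays. All knockdown values lay below all control values, but the nearest arrays differed little, and the log2 fold change of -0.28 (SE 0.109) did not pass the threshold (adjusted p = 0.154, limma). It was -0.155 without knockdown replicate 2 and -0.185 without control replicate 2. Srebf2 had 12.46 and 12.43 on the knockdown arrays, against 12.46 and 12.43 on the control arrays, the same values in both groups. Its log2 fold change was 0, with a 95% interval from -0.149 to 0.149. Srebf1 had 10.38 and 10.41 on the knockdown arrays, against 10.25 and 10.35 on the control arrays. The groups did not overlap but lay close together, at a log2 fold change of 0.095 (SE 0.067, limma adjusted p = 0.39). Leaving out control replicate 1 gave 0.045, and leaving out control replicate 2 gave 0.145. The array reads transcripts, so cleavage of the SREBP proteins was not measured.

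**Figure D2:**
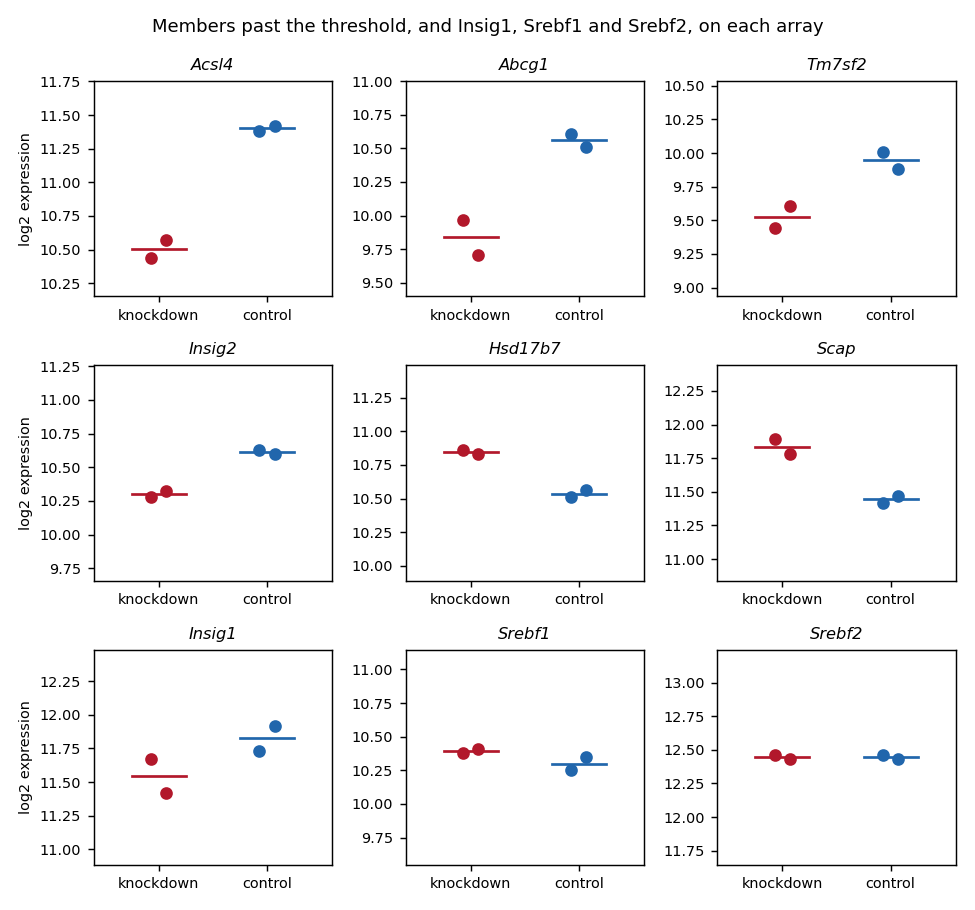
Log2 expression (y axis) on each array of the 6 members past the threshold and of Insig1, Srebf1 and Srebf2, with knockdown left of control (x axis). Points are arrays, bars are means of 2 arrays, and every panel spans the same log2 range. Acsl4 and Abcg1 show the widest gaps, at -0.895 and -0.72, and the points of Srebf2 coincide between the groups.

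The enzymes from mevalonate to cholesterol showed 2 calls in opposite directions. Of 18 measured, 1 rose, 1 fell and 16 did not pass the threshold, with a median log2 fold change of 0.0625. The share called was 11.1%, against 12.2% of all genes. Hsd17b7, a sterol ketone reductase of the complex that strips methyl groups from lanosterol derivatives, had 10.86 and 10.83 on the knockdown arrays, against 10.51 and 10.56 on the control arrays. Its replicates were close in both groups, and it rose by 0.31 (SE 0.062, adjusted p = 0.0309, limma). Tm7sf2, a sterol reductase acting after the demethylation of lanosterol, had 9.44 and 9.61 on the knockdown arrays, against 10.01 and 9.88 on the control arrays. The knockdown arrays were both lower, and Tm7sf2 fell by 0.42 (SE 0.086, adjusted p = 0.0334, limma), a 1.34-fold change. Lbr, a nuclear membrane protein with the same reductase activity, was chosen after its value was seen; its log2 fold change was 0.02 (SE 0.072, limma adjusted p = 0.881).

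In the stretch from acetyl-CoA to isoprenoids, 0 of 7 enzymes passed the threshold, where 12.2% of all genes did. Of these 7, 3 had an unadjusted p under 0.05 (29.8% of all genes did). Hmgcs1, the synthase that makes the precursor of mevalonate, had 12.43 and 12.14 on the knockdown arrays, against 11.68 and 12.04 on the control arrays. Both knockdown values exceeded both control values, but the nearest values across the groups were closer than the replicates of either group. The log2 fold change was 0.425 (SE 0.147, adjusted p = 0.119, limma), with 0.245 without control replicate 1 and 0.28 without knockdown replicate 1. Mvk, mevalonate kinase, had 10.74 and 10.67 on the knockdown arrays, against 10.52 and 10.50 on the control arrays, a log2 fold change of 0.195 (limma adjusted p = 0.102). Ggps1, which makes the geranylgeranyl tail used on small GTPases, had 10.25 on both knockdown arrays, against 10.45 and 10.49 on the control arrays. Its log2 fold change of -0.22 (SE 0.06, limma adjusted p = 0.0708) did not pass the threshold. Of 13 alternative fits, Ggps1 passed in 2. These were each array centred on its median (-0.26, limma adjusted p = 0.0449) and dim genes removed (-0.22, limma adjusted p = 0.0469).

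The remaining enzymes of this stretch, Pmvk, Mvd, Idi1 and Fdps, had log2 fold changes between -0.055 (Fdps) and 0.24 (Idi1). From squalene onwards, Fdft1 (squalene synthase), Sqle (squalene epoxidase) and Msmo1 (a methylsterol oxidase) had positive values of 0.185, 0.155 and 0.205, none past the threshold. Lss (lanosterol synthase), Cyp51 (lanosterol demethylase), Nsdhl, Ebp, Sc5d and Dhcr7, which makes cholesterol in the last step, lay between -0.115 (Sc5d) and 0.095 (Dhcr7). The 95% interval of Sqle ran from -0.135 to 0.445 and that of Cyp51 from -0.137 to 0.177, so changes of that size could not be told from 0.

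Replicates of the enzymes differed from each other in a shared direction, a pattern looked at after the values were seen. Fdft1 had 12.85 and 12.68 on the knockdown arrays, against 12.40 and 12.76 on the control arrays. Sqle had 12.10 and 11.82 on the knockdown arrays, against 11.70 and 11.91 on the control arrays. In both genes, as in Hmgcs1, knockdown replicate 1 was the higher of its pair and control replicate 1 the lower of its pair. Knockdown replicate 1 exceeded knockdown replicate 2 for 13 of the 18 enzymes (49.9% of all genes), and control replicate 2 exceeded control replicate 1 for 15 (44.3% of all genes). Both held for 12 enzymes, or 66.7%, against 20.4% of all genes. Insig1 showed the same order of replicates, at a lower level in the knockdown arrays. The median size of the difference between control replicates was 0.14 over the enzymes and 0.08 over all genes. Between the knockdown replicates it was 0.075 over the enzymes and 0.08 over all genes. For 10 of the 18 enzymes a pair of replicates differed by more than the means of the groups did, as for 50.0% of all genes.

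**Figure D3:**
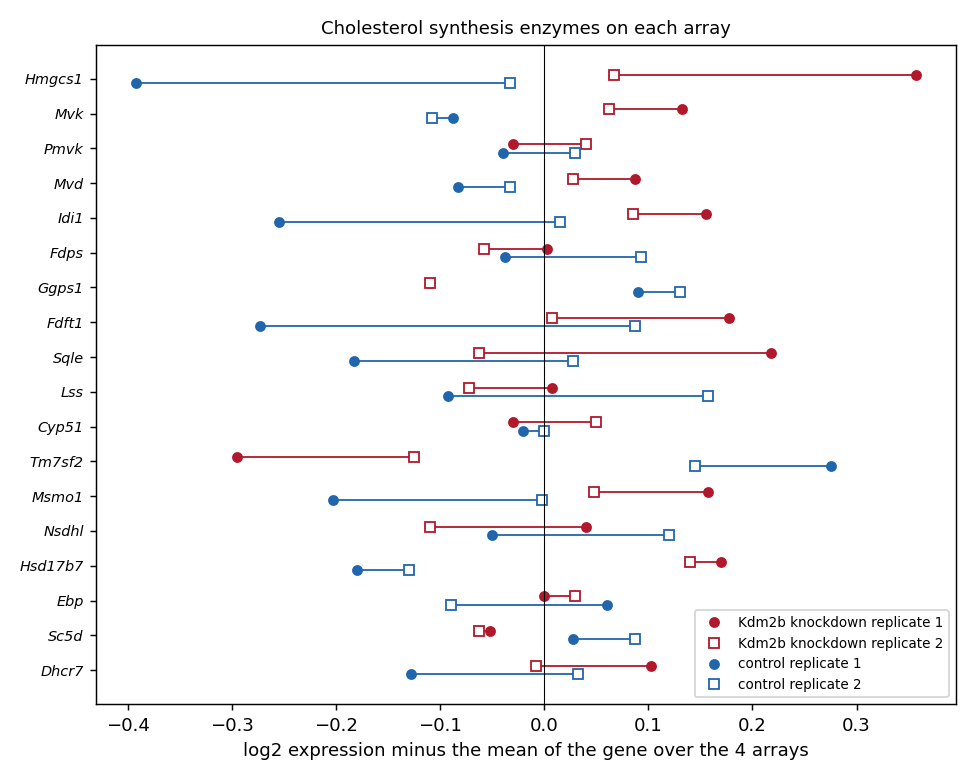
Log2 expression minus the mean of each gene over the 4 arrays (x axis) for the 18 measured enzymes in pathway order (y axis). Each pair of knockdown or control replicates is joined by a line. For Hmgcs1, Mvd, Idi1, Fdft1, Sqle, Msmo1, Hsd17b7 and Dhcr7 control replicate 1 stands lowest and knockdown replicate 1 highest. The pairs are apart for 9 of the 18 enzymes, among them Hsd17b7 and Tm7sf2, which passed the threshold.

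Promoters of the enzymes were read for short motifs, since these genes are known to share control by SREBP together with the CCAAT-binding factor NF-Y and with Sp1. The windows are the 250 bases before annotated starts, from RefSeq (GRCm38.p6), and were found for 27 of the 35 members (36 windows). No window was used for Fdps, Fdft1, Sqle, Stard4, Abcg1, Scd1, Scd2 and Fads1. The motif CCAAT, counted on both strands, was present before at least 1 start of 15 of 15 enzymes with a window and of 5 of 12 other members, against 38.8% of 15614 tested genes with a window. By window, 15 of 18 enzyme windows held it, against 33.8% of all 32851 windows of the table. The Sp1 motif GGGCGG, on both strands, was present for 13 of the 15 enzymes, for 9 of the 12 other members and for 49.3% of tested genes. The enzyme windows held a median of 19 CpG dinucleotides, against 15 in the windows of other members and 11 in the windows of tested genes. The sterol element TCACNCCAC, on both strands, was found for Hmgcs1 alone among the members and for 1.2% of tested genes. Motifs were counted whether or not they overlapped.

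The stretches below were chosen, after the windows were read, from enzymes with 3 or more CCAAT motifs, so the motif they share is the rule that picked them. They are shown to give the arrangement of the motifs, and are printed only where they lie outside every annotated RefSeq gene. Ggps1 also held 3 such motifs, and is not printed because most of its window lies within annotated genes. The log2 fold change was 0.31 for Hsd17b7, which passed the threshold, and 0.425, 0.195 and 0.205 for Hmgcs1, Mvk and Msmo1, which did not, against -0.22 for Ggps1. Differences between these genes were not tested. Capitals mark CCAAT on either strand and, in Hmgcs1, the sterol element.
Hmgcs1 (chr13:119690101-119690350, plus strand): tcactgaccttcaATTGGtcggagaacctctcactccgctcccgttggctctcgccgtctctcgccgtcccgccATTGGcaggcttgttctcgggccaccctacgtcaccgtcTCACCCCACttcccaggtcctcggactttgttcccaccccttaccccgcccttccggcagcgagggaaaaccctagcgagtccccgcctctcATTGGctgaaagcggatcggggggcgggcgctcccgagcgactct
Mvk (chr5:114444074-114444263, plus strand): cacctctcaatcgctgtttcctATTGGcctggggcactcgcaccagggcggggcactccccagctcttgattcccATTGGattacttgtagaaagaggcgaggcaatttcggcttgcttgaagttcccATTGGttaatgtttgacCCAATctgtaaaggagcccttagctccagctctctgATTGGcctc
Msmo1 (chr8:64733579-64733828, minus strand): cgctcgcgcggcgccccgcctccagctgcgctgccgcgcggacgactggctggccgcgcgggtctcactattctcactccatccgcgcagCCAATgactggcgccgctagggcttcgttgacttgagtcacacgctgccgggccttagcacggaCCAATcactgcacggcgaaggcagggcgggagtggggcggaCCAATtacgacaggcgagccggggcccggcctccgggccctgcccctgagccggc
Hsd17b7 (chr1:169969243-169969408, minus strand): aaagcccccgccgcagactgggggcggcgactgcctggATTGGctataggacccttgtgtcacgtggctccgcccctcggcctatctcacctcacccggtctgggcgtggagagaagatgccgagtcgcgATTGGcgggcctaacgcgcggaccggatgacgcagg
The sterol element of Hmgcs1 reads TCACCCCAC and begins 137 bases before the start. The printed stretch of Mvk holds 5 CCAAT motifs, those of Hmgcs1 and Msmo1 hold 3 each, and that of Hsd17b7 holds 2 of the 3 in its window. A match is a description of these letters and not a measured binding site.

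Among the genes of sterol export and LXR control, Abcg1 fell and 4 others did not pass the threshold. This 1 call is 20% of a list of only 5 measured genes, where 12.2% of all genes were called. Abcg1, a sterol exporter and a known LXR target, had 9.97 and 9.71 on the knockdown arrays, against 10.61 and 10.51 on the control arrays. The groups were well apart, and Abcg1 fell by 0.72 (SE 0.100, adjusted p = 0.0137, limma), a 1.65-fold change. Abca1, the other exporter and LXR target of the list, had 10.99 and 10.85 on the knockdown arrays, against 11.06 and 10.71 on the control arrays. The knockdown values of Abca1 lay between the control values, with a log2 fold change of 0.035 and a 95% interval from -0.271 to 0.341. Stard4 (a sterol carrier), Mylip (a ubiquitin ligase that removes lipoprotein receptors) and Nr1h3 (LXR alpha) had log2 fold changes of -0.055, -0.045 and 0.05, with overlapping groups. Nr1h3 was the sole member below the level used as the filter on dim genes, a mean log2 value of 8.52.

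Of the 7 fatty acid genes, Acsl4 fell and 6 did not pass the threshold. The share called was 14.3%, near the 12.2% of all genes. Acsl4, an acyl-CoA synthetase that prefers arachidonic acid, had 10.44 and 10.57 on the knockdown arrays, against 11.38 and 11.42 on the control arrays. It fell by 0.895 (SE 0.071, adjusted p = 0.0055, limma), or 1.86-fold, the largest change among the 35 members. Fads1 and Fads2, neighbouring desaturases of polyunsaturated fatty acids, were both lower in both knockdown arrays. Fads1 had 12.33 and 12.36 on the knockdown arrays, against 12.74 and 12.55 on the control arrays, a log2 fold change of -0.30 (SE 0.082, limma adjusted p = 0.0688). Fads2 had 12.22 on both knockdown arrays, against 12.47 and 12.40 on the control arrays, a log2 fold change of -0.215 (SE 0.063, limma adjusted p = 0.0804). These values lay close to the threshold. Of 13 alternative fits, Fads1 passed in 2 and Fads2 in 1. Both passed with an intensity trend in the prior (limma adjusted p = 0.0426 for Fads1 and 0.0443 for Fads2).

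The stearoyl-CoA desaturases, which make monounsaturated fatty acids, had values of opposite sign, neither past the threshold. Scd2 had 13.72 and 13.75 on the knockdown arrays, against 13.47 and 13.58 on the control arrays. Its log2 fold change was 0.21 (SE 0.068, limma adjusted p = 0.103). Scd2 passed in 1 of 13 alternative fits, with an intensity trend in the prior (limma adjusted p = 0.035). Scd1 had 12.95 and 13.12 on the knockdown arrays, against 13.12 and 13.09 on the control arrays, a value of -0.07 with overlapping groups. The difference between these genes was not tested. Elovl6, an elongase, had a log2 fold change of 0.095. Lpin1, a phosphatidate phosphatase, had 0.265 (SE 0.144) with overlapping groups.

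Other genes of sterol and lipid handling were read from lists of 70 genes outside the members, of which 58 were measured and 12 were not analysed here. Of the 58, 5 rose (8.62%, against 5.00% of all genes) and 11 fell (19.0%, against 7.19% of all genes). All these lists were chosen with earlier results of these data known, so their shares describe the lists and do not test them against all genes. The median log2 fold change of the 58 was -0.065. With dim genes removed, 6 of these genes rose and 11 fell, where 1012 of 11526 genes rose and 1516 fell. Genes of lipoprotein uptake and of cholesterol release from lysosomes held 4 of the 11 that fell, among 7 measured (57.1%, against 7.19% of all genes). Vldlr, a lipoprotein receptor, had 8.41 and 8.77 on the knockdown arrays, against 9.92 and 9.30 on the control arrays. Its groups did not overlap, its control replicates differed widely, and it fell by 1.02 (SE 0.217, adjusted p = 0.0368, limma). Npc1, which carries cholesterol out of the lysosome, had 11.48 and 11.47 on the knockdown arrays, against 12.11 and 11.96 on the control arrays. It fell by 0.56 (SE 0.074, adjusted p = 0.012, limma), and the knockdown replicates were nearly equal. Lipa, the lysosomal acid lipase, fell by 0.555 (SE 0.09) and Scarb1, a receptor for high-density lipoprotein, fell by 0.335 (SE 0.071). Tmem97, a sterol-regulated membrane protein that binds NPC1, rose by 0.29 (SE 0.064). Lrp1 and Npc2 had values of 0.315 and -0.22 and did not pass the threshold.

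Stard5, a sterol carrier, fell by 0.555 (SE 0.066) and Nceh1, a cholesteryl ester hydrolase, fell by 0.56 (SE 0.086). Abca7, a lipid transporter, fell by 0.565 (SE 0.09). They were among 18 genes of sterol transport, of which 0 rose and 16.7% fell. Of all genes, 5.00% rose and 7.19% fell. Of 14 genes of fatty acid synthesis, Me1, a source of cytosolic NADPH, rose by 0.38 (SE 0.059) and the elongase Elovl5 by 0.33 (SE 0.065). In the same list Acsl5, an acyl-CoA synthetase, fell by 0.605 (SE 0.09) and Acss2, the cytosolic acetyl-CoA synthetase, fell by 0.38 (SE 0.062). Among 8 genes that process or degrade proteins of the SREBP machinery, Rnf145, a ubiquitin ligase, rose by 0.475 (SE 0.111), a value of 0.315 without control replicate 1, and Erlin1 fell by 0.33 (SE 0.074). Of 7 genes that use isoprenoids, Coq2, which attaches the tail of ubiquinone, fell by 0.535 (SE 0.067). Of 4 further genes of the synthesis route, Aacs, a cytosolic acetoacetyl-CoA synthetase, rose by 0.325 (SE 0.076). The adjusted p of these genes ran from 0.0097 (Stard5) to 0.0472 (Aacs) in limma.

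**Figure D4:**
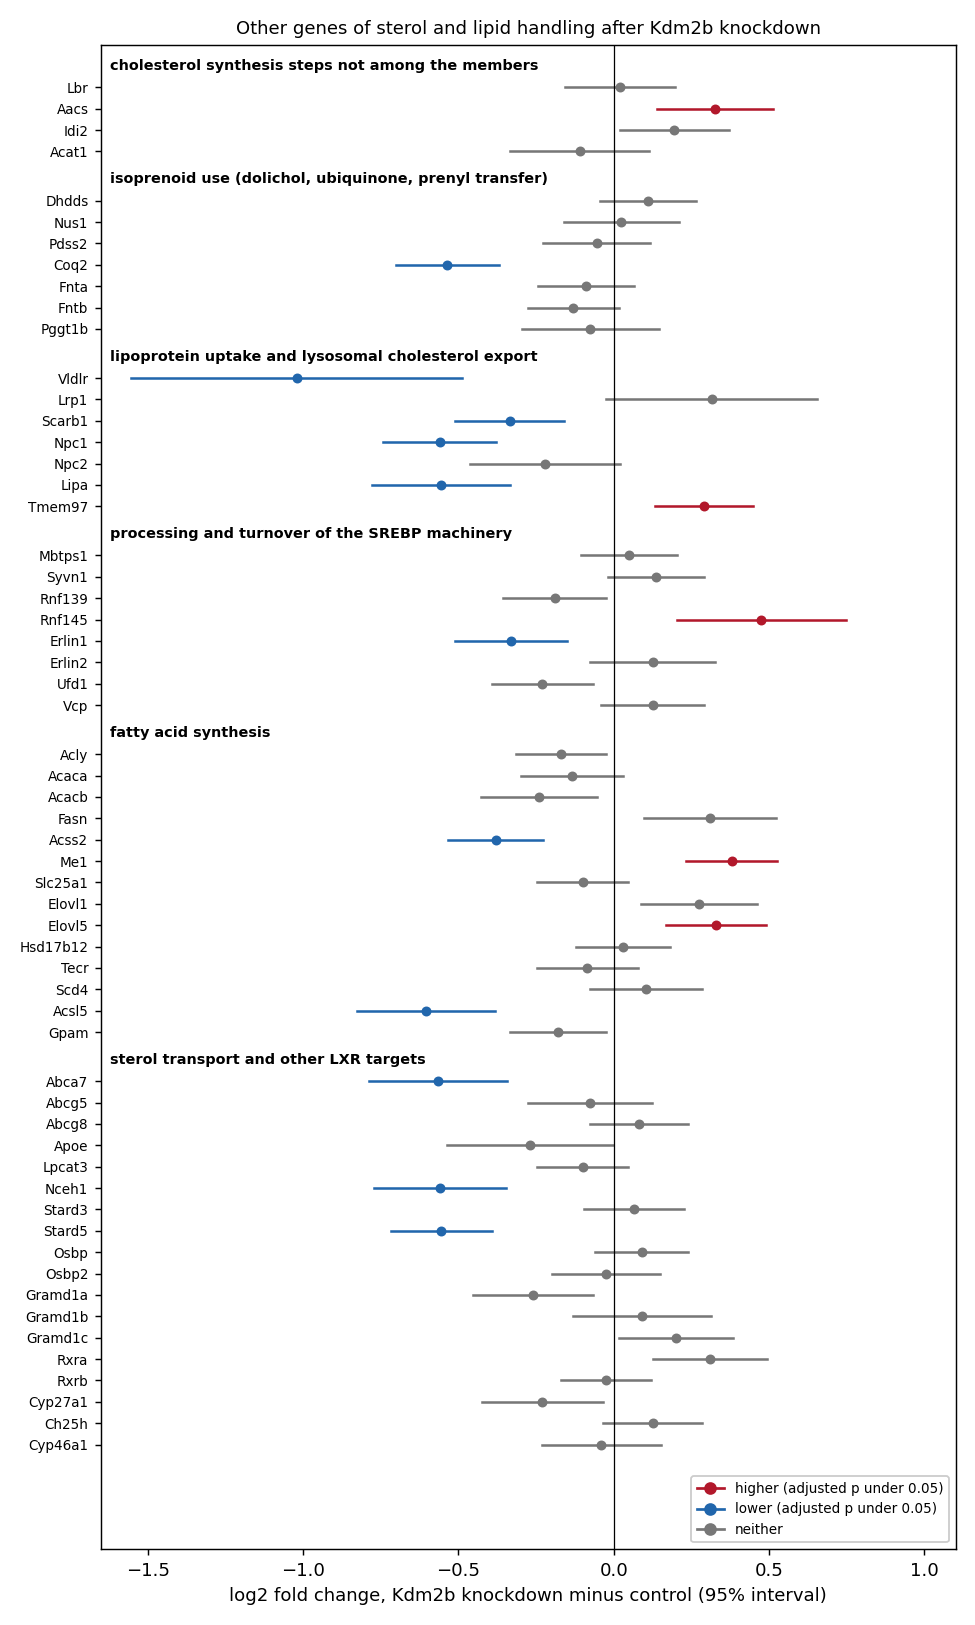
Log2 fold change (Kdm2b knockdown minus control, x axis) of the 58 measured genes of sterol and lipid handling outside the member list, grouped by role (y axis). Points are limma estimates from 2 arrays per group, lines are 95% intervals, and colour marks the call. The 11 genes that fell run from -0.33 (Erlin1) to -1.02 (Vldlr), and the 5 that rose from 0.29 (Tmem97) to 0.475 (Rnf145).

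The cell type label was read against its markers. All 8 embryonic stem cell markers were measured, limma called 0 of them (2 had an unadjusted p under 0.05), and the log2 of their summed signal was 16.49 and 16.52 on the knockdown arrays, against 16.47 and 16.48 on the control arrays. Of 14 markers of primitive and visceral endoderm, extraembryonic cells that make lipoproteins, 3 rose and 0 fell. Of these 14, 13 had a positive value and 8 had an unadjusted p under 0.05. Of all genes, 5.00% rose, 7.19% fell, 56.9% had a positive value and 29.8% had an unadjusted p under 0.05. Gata6 rose by 2.115, Dab2 by 1.12 and Sox17 by 0.53 on the log2 scale. Pdgfra, Cubn and Sox7 had values of 1.525, 0.81 and 0.70 and did not pass the threshold. The summed signal of the 14 endoderm markers was 13.39 and 13.91 on the knockdown arrays, against 12.81 and 12.56 on the control arrays. Of 8 trophectoderm markers 3 rose and 1 fell, with sums of 12.79 and 12.73 on the knockdown arrays, against 12.65 and 12.58 on the control arrays. Of 9 fibroblast markers 1 rose and 2 fell, with sums of 14.69 and 14.68 on the knockdown arrays, against 14.77 and 14.82 on the control arrays. The sums of every marker list were thus separated between the groups, as were the arrays for 58.8% of all genes. The gap was widest for endoderm, the stem cell sums lay close together, and only the fibroblast sums were lower after knockdown. A sum follows the brightest genes of its list. For fibroblast markers these are Fn1 and Vim, with log2 fold changes of -0.225 and -0.015, neither past the threshold. Of the 9 fibroblast markers, 4 had a positive value and 5 a negative one. The part of the marker genes in the changes of the sterol genes was not tested. Gata4, Foxa2, Apoa1, Amn and Hnf4a, with mean levels above 8.52, had log2 fold changes of 0.505, 0.20, 0.09, 0.025 and -0.145. None of these passed the threshold. Apob, Afp and Ttr, which mark lipoprotein-making endoderm, had log2 fold changes of 0.11, 0.005 and 0.23, none past the threshold. Their mean log2 levels of 7.745, 7.4925 and 6.075 lay below the dim filter level of 8.52, which limits what these values can show. In RNA from a whole culture, fewer cells of a type and less RNA per cell cannot be told apart.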

How the data were processed

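The authors deposited 1 log2 value for each of 35557 probe sets on each of 4 arrays. The submitters' processing notes name Affymetrix Expression Console; its version, background step, summary method and scaling are not given in the sources at hand. The log2 scale was read from the values, and array medians ran from 8.49 to 8.55. Groups come from the sample titles. Of the probe sets, 21789 had 1 gene symbol in the platform annotation, 1621 had several and 12147 had no entry; 21698 matched RefSeq by Entrez ID, with 0 symbols changed. Genes with several probe sets (999) were read from the brightest.

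Knockdown was compared with control by limma 3.58.1 in R 4.3.3 (group only, two-sided, eBayes with a prior of 3.9 degrees of freedom, Benjamini-Hochberg adjustment over 19938 genes, threshold 0.05). SE and 95% intervals are limma's moderated ones. The number of arrays limits the precision. The members and lists were chosen with earlier results of these data known. Named are Kdm2b, the sensing genes, all genes past the threshold, and members with an unadjusted p under 0.05 and groups that do not overlap; genes outside this rule serve as values. Alternatives were a replicate block, each array left out, quantile normalization, median centring, a filter on dim genes, other probe set choices, and a trend or robust prior.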

Additional observations from a re-analysis of the deposited data

How the results depend on the processing

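The 6 members called kept their direction under all 13 alternatives, and each of them stayed past the threshold in 7. With the replicate number as a block, and with every probe set of the table tested, 0 members and 0 companion genes were higher and 0 and 0 lower, as were 0 of all features in either fit. An unadjusted p under 0.05 was found for 11 members in either fit, beside 5411 of 19938 genes with the block and 7742 of 35557 probe sets. The block fit leaves 1 residual degree of freedom. The prior had 1.55 degrees of freedom with the block and 2.29 with every probe set, in place of 3.9. The cause of the lost calls was not tested. Kdm2b then had the same log2 fold change of -1.495 with adjusted p-values of 0.127 and 0.0679. Same-numbered arrays of the groups deviated together with r = 0.095 across genes, and with 2 per group the numbers give no pairing. Leaving out each array in turn gave 0 to 0 calls for members and companion genes in either direction, and from -1.545 to -1.445 for Kdm2b; these fits leave 1 residual degree of freedom, and a lone array is assumed to vary like the other group. Over these fits the median of the members ran from 0.01 to 0.02. With each array centred on its median, 3 companion genes were higher in place of 5 (Aacs had an adjusted p of 0.0512 and Tmem97 of 0.0613), and the median of the members was -0.02, against a median over all genes of -0.01; over all genes 841 were then called higher and 1866 lower, in place of 997 and 1434. Rnf145 missed the threshold with every probe set of 1 symbol tested (0.0501), and Tmem97 with the mean of its probe sets (0.0678). Of the results called, 0 changed sign. The depth of array signal below the filter level of 8.52 limits Nr1h3 alone among the members.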

Other observations

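Further probe sets of the same genes gave a second reading that the comparisons did not use. The second probe set of Fdft1 had 12.80 and 12.63 on the knockdown arrays, against 12.35 and 12.70 on the control arrays, the same order of arrays as its brighter probe set. That of Idi1 had 11.64 and 11.60 on the knockdown arrays, against 11.28 and 11.52 on the control arrays, and control replicate 1 was again the lowest. The second probe set of Me1 had a log2 fold change of 0.38 (adjusted p = 0.0197, limma, over all probe sets with 1 symbol), the value of the brighter one. That of Tmem97 had 0.23 (adjusted p = 0.124, limma) and did not pass the threshold, which its brighter probe set did at 0.29. Idi2, a paralogue of Idi1 read at low signal, had 0.28 at its second probe set (adjusted p = 0.0387, limma) and 0.195 at the brighter one, which did not pass the threshold.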
